A study of Mus musculus with 10 samples.

Results

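The genes described here are 8 enzymes and cofactors that make microRNAs (miRNAs): Dgcr8, Drosha, Dicer1, Xpo5, Tarbp2, Prkra, Ddx5 and Ddx17. They were chosen by symbol from a table of ribosome footprint counts, and all 8 were found among its 11011 genes and passed the filter on low counts that left 10978 for testing. Ribosome profiling sequences the stretches of mRNA that ribosomes shield from nuclease, so a footprint count follows both the amount of an mRNA and how densely it is occupied, which cannot be told apart here. The 10 libraries came from the mouse embryonic stem cell line E14, of 129/Ola background, and formed 5 groups of 2: WT, Dgcr8 knockout, Drosha knockout, Dicer knockout, and a double knockout of Ago1 and Ago2 (called the Ago knockout below). All groups were grown on gelatine in serum with LIF and were treated with cycloheximide before lysis. The labels give neither the deleted exons nor whether a line is 1 clone, and nothing in them says that replicates were separate cultures, so the p-values here cover the spread among libraries, which may be technical.

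A miRNA begins as a hairpin in a longer transcript. In the nucleus the Microprocessor, made of the RNase III enzyme Drosha and its RNA-binding partner Dgcr8, cuts the hairpin out, with the DEAD-box helicases Ddx5 and Ddx17 as cofactors. Exportin-5, the product of Xpo5, carries the hairpin to the cytoplasm, where Dicer trims it to a duplex with its double-stranded RNA-binding partners Tarbp2 and Prkra. Argonaute proteins then hold 1 strand. The Microprocessor is also known to cut hairpins in the Dgcr8 mRNA itself, and Dgcr8 protein is known to stabilise Drosha, so both subunits are textbook examples of cross-regulation.

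The Dgcr8 mRNA is shown because it holds annotated miRNA hairpins; whether they play a part in any measured change was not tested. Dgcr8 (ENSMUSG00000022718) lies on the minus strand of chromosome 16 from 18253948 to 18289246 in GRCm38. The hairpin Mir1306 lies wholly inside its coding sequence in exon 2 of 14, at chr16:18284239-18284317, and covers coding bases 100 to 178 of 2319. Its sequence from RefSeq (GRCm38.p6), with both mature arms in capitals, is shown first, then each arm with its seed (bases 2 to 8) in capitals:
Mir1306 hairpin: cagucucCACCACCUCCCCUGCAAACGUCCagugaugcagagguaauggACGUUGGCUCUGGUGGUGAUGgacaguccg
mmu-miR-1306-5p: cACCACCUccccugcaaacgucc
mmu-miR-1306-3p: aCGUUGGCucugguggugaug

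RNAfold placed 23 base pairs in this 79-base hairpin, with a minimum free energy of -29.8 kcal per mol. A further annotated hairpin of 88 bases, Gm24572, lies in the same exon before the start codon. Of 11008 genes of the table with a coding transcript in GENCODE M21, 11 (0.0999%) hold a RefSeq miRNA hairpin wholly within the coding sequence of their longest coding transcript. Counting only RefSeq hairpins that lie unbroken in that transcript, Dgcr8 was the single gene (0.00908%) with more than 1 hairpin in its exons. Among the other members, Xpo5 carries Mir693 in an intron, and Mir3064 spans the edge of exon 12 of Ddx5. GENCODE M21 also annotates the miRNA Gm47288 in Drosha, with all 72 of its shared exon bases coding, and Gm25994 in Ddx5, with 101 shared exon bases of which 0 are coding, so Dgcr8 is not the only member with a miRNA annotated inside its coding sequence. Ddx5 also shares 67 exon bases with Mir3064, so Dgcr8 is not the only member with more than 1 miRNA annotated over its exons. These positions come from the annotation and show no cutting.

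**Figure D1:**
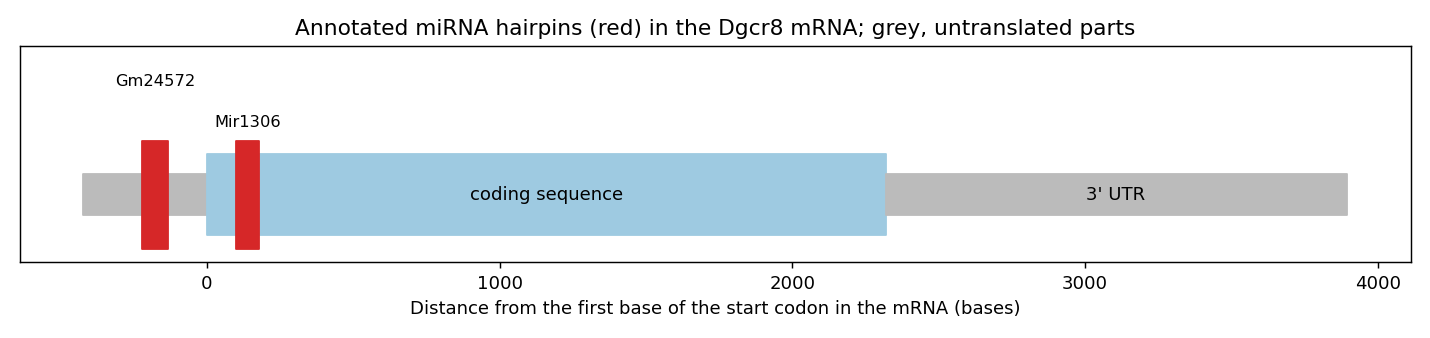
The longest coding transcript of Dgcr8 drawn to scale by distance from the start codon, in bases. Both annotated hairpins (red) stand at the 5′ end, Gm24572 before the coding sequence (blue) and Mir1306 within its coding bases 100 to 178.

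Depth, which sets the counting error of each value, differed between the libraries. Total counts ran from 1754710 to 80850950 per library, a 46.1-fold range, with the Drosha libraries and the second Dicer library the shallowest. The members were covered by at least 10 counts in every library. In the cell type check, all 8 listed stem cell markers were measured, and their summed level was 4199 to 5599 CPM (TMM-scaled counts relative to library size) over the 10 libraries. The 9 measured of 10 primitive and visceral endoderm markers summed to 7252 and 8318 CPM in WT, to 4079 and 371 CPM in the first and second Dgcr8 libraries, and to 305 to 657 CPM in the 6 others, with Gata6 at 0 counts in both Dicer libraries. The 5 measured of 9 trophectoderm markers summed to 150 to 182 CPM in WT, 157 to 228 in the Dgcr8 libraries, 375 to 377 in the Drosha, 618 to 857 in the Dicer and 184 to 205 in the Ago knockout. The 4 measured of 9 fibroblast markers summed to 219.9 to 247.5 CPM in WT and to 41.4 to 173 CPM in the knockouts. The 2 measured of 4 two-cell-like markers summed to 0.332 to 1.29 CPM in WT and 0.557 to 0.996 CPM in the Dgcr8 libraries, and to 15.1 to 71.2 CPM in the 6 others. These lists move with the groups compared below, and the Dgcr8 libraries also differ from each other in the endoderm markers. Their part in the results was not tested. The first Dgcr8 library had a correlation (r) of 0.959 and 0.947 with the WT libraries and 0.928 with its own replicate. For Drosha, r was 0.896 between replicates, below the 0.951 and 0.936 of its first library with the Dicer knockout. In the first Ago library r was 0.928 with its replicate and 0.946 with the first Drosha library. Every other library was most like its own replicate. This spread enters the tests, so few calls in the Dgcr8 libraries do not show few changes.

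Of the 8 genes, Dgcr8, Drosha and Dicer1 differed among the 5 groups and the other 5 did not pass that test. The adjusted p-values were 0.0036 for Dgcr8, 0.0046 for Drosha and 0.0078 for Dicer1 (edgeR quasi-likelihood test over all groups, Benjamini-Hochberg adjustment over all genes), and they ran from 0.35 to 0.71 for Xpo5, Tarbp2, Prkra, Ddx5 and Ddx17. In that test 6.47% of all genes passed. Against WT, 1 of the 8 passed in the Dgcr8 libraries (background 0.0729% of genes), 2 in the Drosha knockout (3.44%), 2 in the Dicer knockout (11.1%) and 1 in the Ago knockout (2.88%). The median log2 fold change of the 8 was 0.36, 0.26, 0.17 and 0.41 in that order, beside medians of 0.02, -0.01, 0.00 and 0.04 over all genes.

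**Figure D2:**
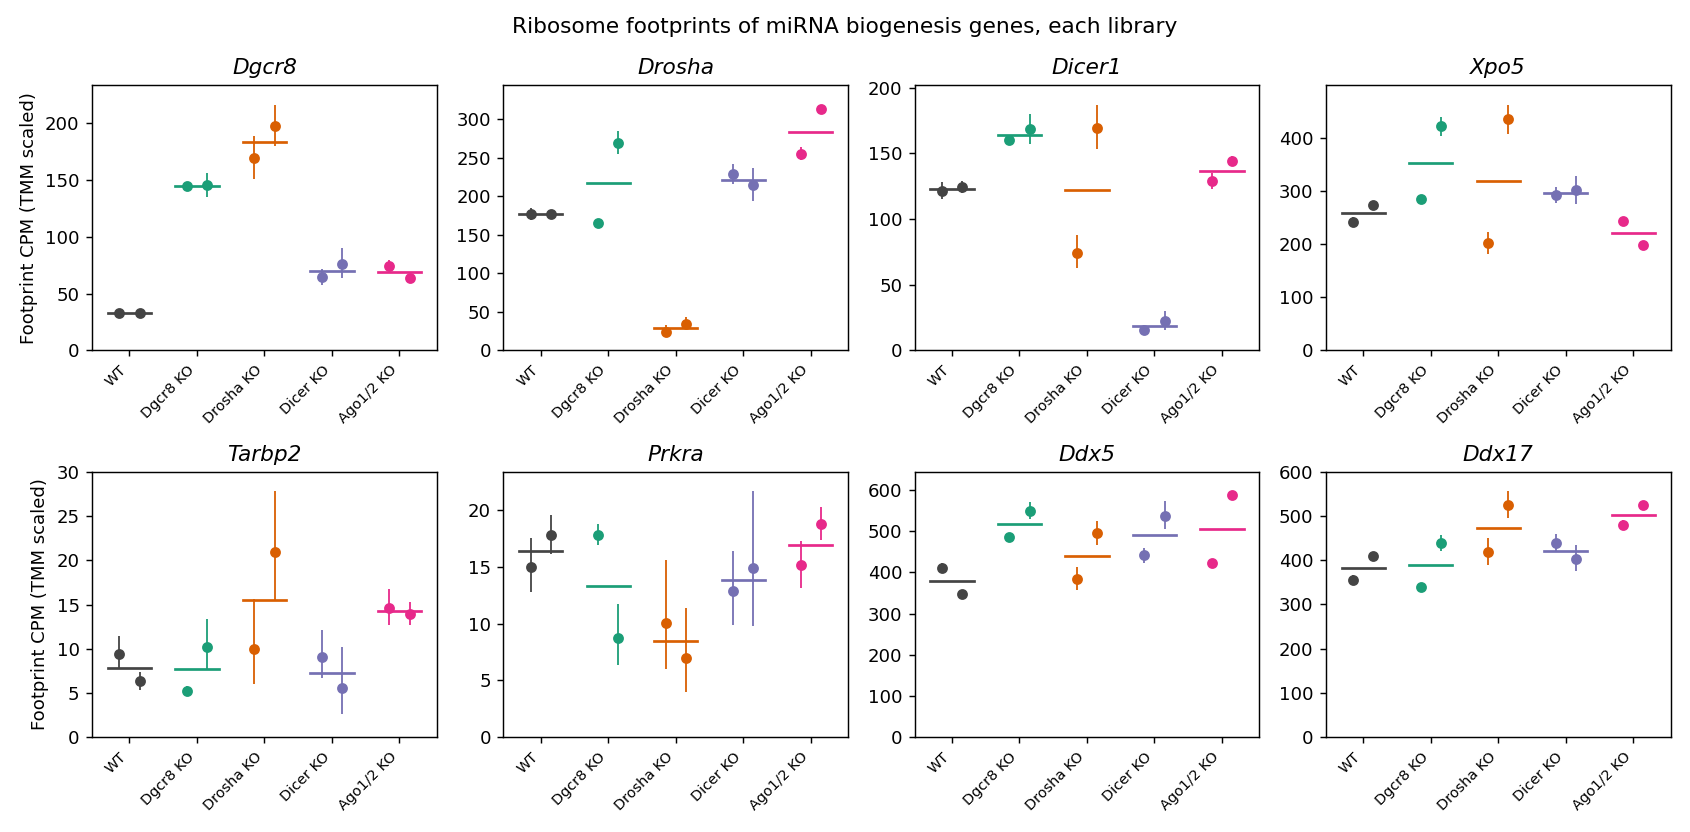
Footprint CPM of each gene in each library, with exact Poisson 95% intervals of the counts as bars and the group mean as a line. Dgcr8 stands at 32.7 and 33.1 CPM in WT and higher in all 8 knockout libraries, while Drosha and Dicer1 are low in their own knockouts.

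Dgcr8, the RNA-binding subunit of the Microprocessor, was at 32.7 and 33.1 CPM in the WT libraries. It was at 145 and 146 CPM in the libraries labelled Dgcr8 knockout and at 169 and 197 CPM in the Drosha knockout. The Dicer knockout had 64.5 and 76.1 CPM and the Ago knockout 74.6 and 63.5 CPM. All 8 knockout libraries were above both WT libraries, as in 8.15% of all genes. The libraries labelled Dgcr8 knockout and those of the Drosha knockout were also all above those of the Dicer and Ago knockouts, with no overlap between these 3 levels. That order was found in 4 genes (0.0364%): Dgcr8, Dhx38, a splicing helicase, Vwa3b, and Ddhd2, a phospholipase. The order was read from the values of Dgcr8, so Dgcr8 meets it by construction and the share is no test. Dhx38, Vwa3b and Ddhd2 were named after their values were seen.

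In the test Dgcr8 rose in every knockout. Against WT its log2 fold change was 2.14 for the Dgcr8 libraries (SE 0.26, adjusted p = 0.015 in edgeR) and 2.48 for the Drosha knockout (SE 0.27, adjusted p = 0.0028). For the Dicer knockout it was 1.09 (SE 0.26, adjusted p = 0.021), and for the Ago knockout 1.07 (SE 0.25, adjusted p = 0.047). As ratios of group means the rises were 4.42-fold, 5.58-fold, 2.14-fold and 2.10-fold. A call for higher in all 4 was made for 5 genes (0.0455%), Dgcr8, Dusp27, Nexmif, Lgals3 and Smyd1, of which the last 4 were named after their values were seen. The 4 comparisons share the WT libraries. In the libraries labelled Dgcr8 knockout these counts do not show the labelled loss, and the labels do not give the deleted exons. The label thus cannot be checked from these counts, and directions drawn from those libraries carry that doubt. A count per gene carries no information on the exons behind it.

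The calls for Dgcr8 depended on single libraries, while its direction did not change under any alternative run. Without the first or the second WT library the adjusted p was 0.24 and 0.44 for the Dgcr8 libraries and 0.053 and 0.098 for the Drosha knockout. It was then 0.15 and 0.18 for the Dicer knockout, and 0.27 and 0.42 for the Ago knockout. It was 0.083 without the second Dgcr8 library in the comparison labelled for it. In the Dicer knockout it was 0.089 and 0.13 without the first or second Dicer library, and in the Ago knockout 0.12 and 0.065 without the first or second Ago library and 0.076 and 0.081 without the first or second Dicer library. The Ago call was also lost with total-count scaling (0.060), and the Ago and Dgcr8 calls with only the 2 compared groups in the fit (0.063 and 0.098). Leaving out 1 library at a time kept the log2 fold change between 2.14 and 2.16, 2.37 and 2.59, 0.97 and 1.22, and 0.95 and 1.18 in the 4 comparisons. Of the Dgcr8 libraries, the first had 4079 CPM of the endoderm markers and 145 CPM of Dgcr8, and the second 371 CPM and 146 CPM.

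Differences between the knockouts were tested directly. Over 8 genes and 6 pairs of knockouts, 6 of 48 tests passed, beside 0.943% of all such tests over all genes, and 5 of the 6 set Drosha or Dicer1 in its own knockout against another. For Dgcr8, the Dicer knockout was below the Dgcr8 libraries by a log2 difference of -1.05 (95% interval -1.61 to -0.49, adjusted p = 0.044), a comparison in which 4.07% of genes passed. The corresponding differences were -1.07 (adjusted p = 0.088) for Ago against Dgcr8, -1.39 (adjusted p = 0.15) for Dicer against Drosha, and -1.41 (adjusted p = 0.078) for Ago against Drosha, and did not pass in edgeR (0.483% of genes passed for Ago against Dgcr8). All 3 passed with DESeq2 (adjusted p = 0.0029, 3.7e-04 and 5.6e-05), and Ago against Dgcr8 also passed with limma-voom (adjusted p = 0.032). Of all 10978 genes DESeq2 called 359, 67 and 142 in these 3 pairs, and limma-voom 436 for Ago against Dgcr8. The Dgcr8 libraries and the Drosha knockout differed by 0.34 (95% interval -0.21 to 0.89), and the Dicer and Ago knockouts by -0.02 (-0.58 to 0.53). After these values were seen, the mean of the libraries labelled Dgcr8 knockout and of the Drosha knockout was set against that of the Dicer and Ago knockouts, and Dgcr8 was higher there by a log2 difference of 1.23. This restates the pattern it was built on and is given with no test.

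The call for the Dicer knockout against the Dgcr8 libraries also rested on single libraries. It was lost without either library of WT (adjusted p = 0.089 and 0.096), Dgcr8 (0.13 and 0.0999) or Dicer (0.42 and 0.14).

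Reads of other genes could enter the Dgcr8 count, since the sources used here do not give the strand setting. Trmt2a, a tRNA methyltransferase, lies on the opposite strand and shares 825 exon bases with Dgcr8, none of them in its coding sequence. Trmt2a was at 59.7 and 72.8 CPM in WT, at 58.8 and 78.3 CPM with the Dgcr8 label and at 48.5 and 100.5 CPM in the Drosha knockout. The Dicer knockout had 40.5 and 50.2 CPM of it and the Ago knockout 57.9 and 67.9 CPM. It passed no comparison with WT, with log2 fold changes from -0.55 to 0.17. Of the 28-base windows of the Dgcr8 coding sequence, 15.2% occur in transcripts of other genes, mostly the overlapping model Gm49776 (12.9%) and the processed pseudogene Gm43555 (9.73%).

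Drosha, the nuclear RNase III enzyme (ENSMUSG00000022191, chromosome 15 from 12824815 to 12935291), was at 177.1 and 177.5 CPM in WT. In its own knockout it was at 24.3 and 34.5 CPM, from 46 and 79 counts, which is 16.6% of the WT mean. It fell there by 2.59 on the log2 scale (SE 0.33, adjusted p = 0.0067 in edgeR), though the adjusted p was 0.098 without the second WT library. The Dgcr8 libraries were at 165 and 270 CPM and overlapped WT, the Dicer knockout was at 229 and 215 CPM and the Ago knockout at 255 and 313 CPM. Of these the Ago knockout had the largest difference from WT, with a log2 fold change of 0.68 (95% interval 0.03 to 1.33, unadjusted p = 0.041, adjusted p = 0.23 in edgeR), which did not pass. Drosha was below the Dgcr8 libraries in its own knockout by a log2 difference of -2.88 (adjusted p = 0.0085, 0.501% of genes passing). The Ago knockout was above it by 3.27 (adjusted p = 0.0031, 0.0455% passing). The Dicer knockout was above it by 2.91 (adjusted p = 0.019), where Drosha was the single gene of all tested that passed (0.00911%). That last call was lost when either library of WT (adjusted p = 0.056 and 0.067), Drosha (0.082 and 0.22) or Dicer (0.16 and 0.13) was left out, and with limma-voom (0.16).

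Taking the ratio of 2 genes within a library removes the scaling between libraries. Per kb of coding sequence (kb, kilobase), Dgcr8 had 0.328 and 0.331 times the footprints of Drosha in the WT libraries. The ratio was 1.56 (exact binomial 95% interval 1.52 to 1.597) and 0.958 (0.875 to 1.05) in the Dgcr8 libraries, and 12.4 (9.08 to 17.3) and 10.2 (7.99 to 13.1) in the Drosha knockout. It was 0.50 (0.441 to 0.566) and 0.630 (0.515 to 0.767) in the Dicer knockout, and 0.519 (0.484 to 0.556) and 0.360 (0.343 to 0.377) in the Ago knockout. Every knockout library was above both WT libraries in this ratio, although the interval of the second Ago library overlapped those of WT. These intervals cover counting error only. The ratios in the Drosha knockout combine a higher Dgcr8 with a lower Drosha.

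**Figure D3:**
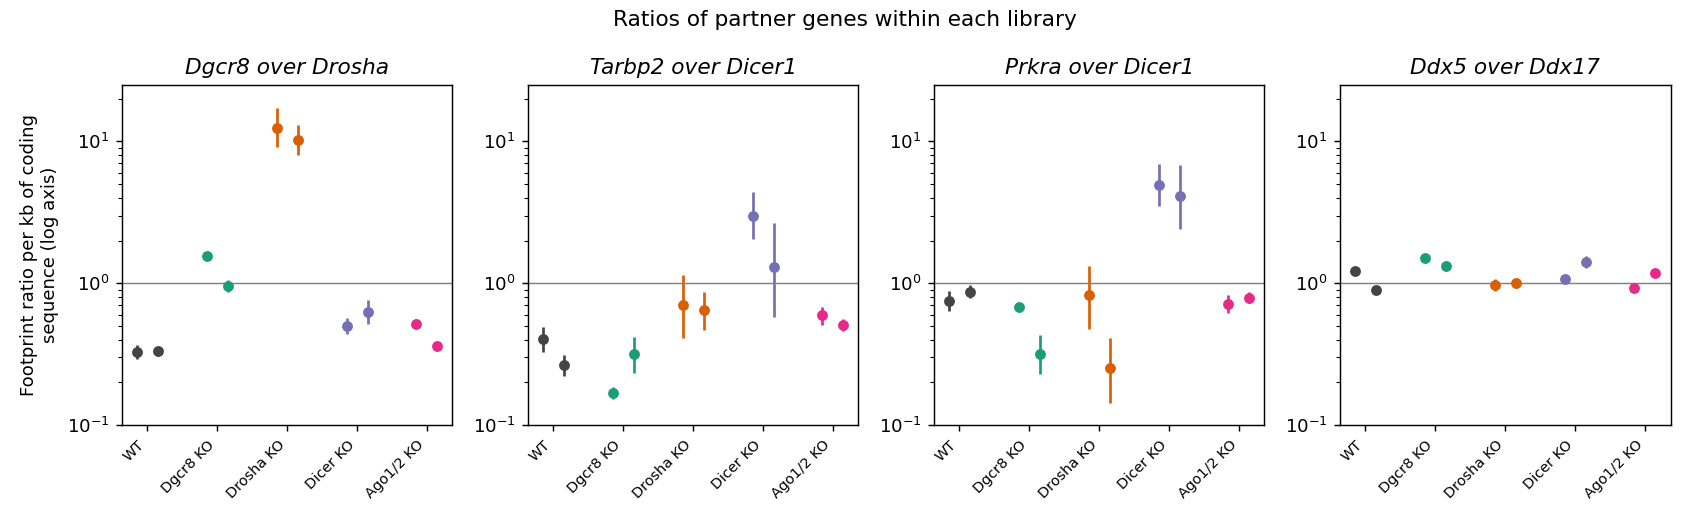
Footprint ratios of partner genes per kb of coding sequence in each library, on a log axis, with exact binomial 95% intervals. Dgcr8 over Drosha stands at 0.328 and 0.331 in WT and at 12.4 and 10.2 in the Drosha knockout, and Ddx5 over Ddx17 lies between 0.896 and 1.51 in all 10 libraries.

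Dicer1 encodes the cytoplasmic RNase III enzyme Dicer (ENSMUSG00000041415, minus strand of chromosome 12 from 104687742 to 104751952). WT had 122 and 124 CPM. The Dicer knockout had 15.8 and 22.1 CPM, from 80 and 40 counts, which is 15.4% of the WT mean. Dicer1 fell by 2.72 on the log2 scale there (SE 0.39, adjusted p = 0.0026 in edgeR), and the adjusted p stayed at or below 0.040 under every alternative run. The Dgcr8 libraries were at 160 and 169 CPM, above WT without passing the test (log2 0.42, 95% interval -0.34 to 1.18). The Ago knockout was at 129 and 144 CPM (log2 0.15, interval -0.61 to 0.91). In the Drosha knockout the libraries fell on either side of WT, at 74.4 and 169.5 CPM, and the log2 difference of -0.01 has an interval of -0.78 to 0.76, so these libraries cannot show a moderate change there.

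Between knockouts, Dicer1 in the Dicer knockout was lower than in the Dgcr8 libraries by a log2 difference of -3.14 (adjusted p = 0.0040). In the Ago knockout it was higher than in the Dicer knockout by 2.87 (adjusted p = 0.012, 0.547% of genes passing). The first of these lost its call without the first Dicer library (adjusted p = 0.066). The second lost it without the first (0.24) or second (0.059) Dicer library or the second Ago library (0.077). Against the Drosha knockout the difference of -2.72 did not pass in edgeR (adjusted p = 0.095). It passed with DESeq2 (adjusted p = 1.3e-07) and, in edgeR, without the first Drosha library (adjusted p = 0.013).

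**Figure D4:**
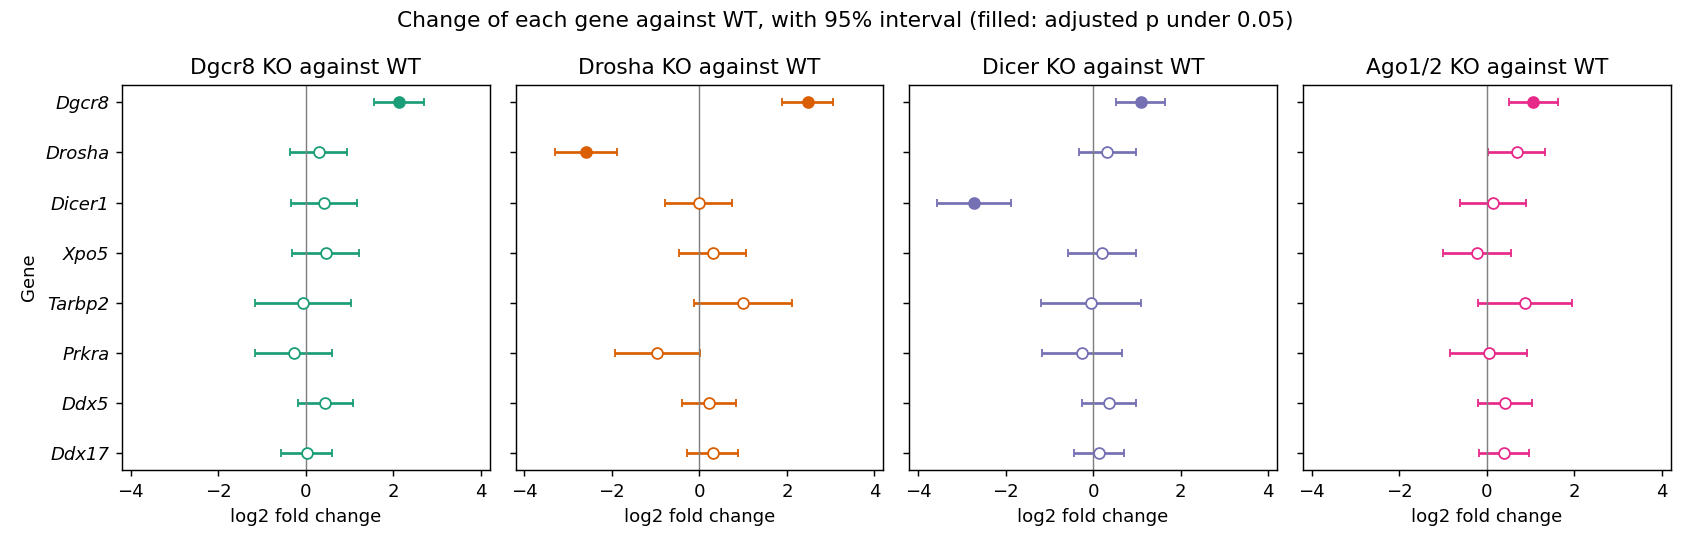
The log2 fold change of each gene against WT in each knockout, with 95% intervals from the edgeR fit; filled points have an adjusted p under 0.05. Dgcr8 is filled in all 4 panels, Drosha and Dicer1 are filled in their own knockouts, and the intervals of the other 5 genes include 0 in each panel.

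Xpo5, the export receptor (ENSMUSG00000067150, chromosome 17 from 46202782 to 46243598), was at 242 and 273 CPM in WT. The Dgcr8 libraries had 285 and 421 CPM, the Dicer knockout 292 and 301 CPM, and the Ago knockout 243 and 199 CPM. The Drosha libraries lay at 201 and 434 CPM, on either side of WT. The log2 fold changes ran from -0.22 in the Ago knockout to 0.45 in the Dgcr8 libraries (interval -0.31 to 1.22), and none passed. Xpo5 and Dicer1 were both lower in the first Drosha library than in the second.

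Tarbp2 and Prkra, the Dicer partners, had the fewest footprints, with 10 to 471 and 16 to 1473 counts per library. Tarbp2 (ENSMUSG00000023051, chromosome 15 from 102518192 to 102523676) was at 9.40 and 6.31 CPM in WT. The Dgcr8 libraries had 5.21 and 10.2 CPM and the Drosha knockout 10.02 and 21.0 CPM. The Dicer knockout had 9.10 and 5.52 CPM and the Ago knockout 14.6 and 14.0 CPM. The Drosha and Ago libraries were thus all above WT, by log2 1.00 (95% interval -0.13 to 2.12, adjusted p = 0.32) and 0.87 (interval -0.20 to 1.94, adjusted p = 0.36), and neither passed.

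Prkra (ENSMUSG00000002731, minus strand of chromosome 2 from 76629898 to 76648015) was at 15.0 and 17.8 CPM in WT and at 10.02 and 6.99 CPM in the Drosha knockout. The difference there, log2 -0.96 (interval -1.93 to 0.02), had an unadjusted p of 0.053 and an adjusted p of 0.27. It rests on 19 and 16 counts. The Dgcr8 libraries were at 17.9 and 8.77 CPM, the Dicer knockout at 12.9 and 14.9 CPM and the Ago knockout at 15.1 and 18.8 CPM. Per kb of coding sequence, Tarbp2 over Prkra was 0.537 and 0.304 in WT and 0.858 and 2.57 in the Drosha knockout, with exact binomial 95% intervals of 0.430 to 1.71 and 1.44 to 4.85. Only the second Drosha library therefore lay clear of both WT libraries by counting error. The ratio was also above both WT values in the Ago (0.829 and 0.637), second Dgcr8 (0.994) and first Dicer (0.607) libraries. Their intervals overlapped that of the first WT library (0.415 to 0.691). The first Dgcr8 and second Dicer libraries had 0.250 and 0.318.

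In the Dicer knockout, where Dicer1 is the targeted gene, the partners kept footprints while Dicer1 was low. Prkra (12.9 and 14.9 CPM) was there below both WT libraries (15.0 and 17.8 CPM), and 67.2% of all genes had no overlap in that comparison. The ratios below combine the partners with the low Dicer1. Prkra over Dicer1 per kb was 0.751 and 0.872 in WT and 4.95 (interval 3.51 to 6.95) and 4.11 (2.43 to 6.87) in the Dicer knockout. Tarbp2 over Dicer1 was 0.403 and 0.265 in WT and 3.003 (2.04 to 4.37) and 1.31 (0.582 to 2.66) in the Dicer knockout. It was also above both WT libraries in the Drosha (0.704 and 0.646) and Ago (0.594 and 0.506) knockouts. Of these, only the first Ago library (0.512 to 0.686) lay clear of WT by its interval. The Dgcr8 libraries had 0.170 and 0.315. In the Dicer knockout the log2 fold changes against WT were -0.25 for Prkra (interval -1.17 to 0.67) and -0.05 for Tarbp2 (-1.19 to 1.09). These intervals can hold a change of about 2-fold either way for Tarbp2 and a fall of about 2-fold for Prkra.

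Ddx5 and Ddx17, closely related DEAD-box helicases that also act in transcription and splicing, had the most footprints of the 8. Ddx5 (ENSMUSG00000020719, minus strand of chromosome 11 from 106780355 to 106789185) was at 410 and 346 CPM in WT, and at 485 and 549 CPM with the Dgcr8 label. The Drosha knockout had 384 and 495 CPM, the Dicer knockout 441 and 538 CPM and the Ago knockout 422 and 588 CPM. The Dgcr8, Dicer and Ago libraries were all above WT and the Drosha libraries overlapped it. The log2 fold changes of 0.22 to 0.45 did not pass (adjusted p from 0.43 to 0.72). Ddx17 (ENSMUSG00000055065, minus strand of chromosome 15 from 79527736 to 79546741) was at 356 and 410 CPM in WT. The Dgcr8 libraries had 340 and 438 CPM and the Drosha knockout 419 and 525 CPM. The Dicer knockout had 440 and 403 CPM and the Ago knockout 480 and 525 CPM. Its log2 fold changes lay between 0.02 and 0.39 and did not pass (adjusted p from 0.45 to 0.99).

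Over Xpo5, Tarbp2, Prkra, Ddx5 and Ddx17 together, 0 of 20 tests against WT passed in edgeR, and 0 had an unadjusted p under 0.05. DESeq2 and limma-voom also made 0 calls, with 0 and 1 unadjusted p under 0.05. Between knockouts 0 of 30 tests passed with edgeR, DESeq2 or limma-voom, and 1, 1 and 2 had an unadjusted p under 0.05. In each knockout between 4 and 6 of the 8 members had no overlap with the WT libraries, beside 44.8% of all genes in the Dgcr8 libraries, 53.8% in the Drosha, 67.2% in the Dicer and 53.4% in the Ago knockout, so lack of overlap alone is common in groups of 2.

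How far footprints of related genes can be told apart was read from the GENCODE M21 transcripts. No 28-base window of the coding sequence is shared by Ddx5 and Ddx17. Their longest identical stretch is 21 bases, shown in capitals within 15 bases of flank on either side, because it marks where short reads of the 2 genes come closest:
Ddx5: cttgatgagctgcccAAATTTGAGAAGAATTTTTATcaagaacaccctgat
Ddx17: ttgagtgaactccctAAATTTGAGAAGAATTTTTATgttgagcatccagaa

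Tarbp2 and Prkra, also relatives, share at most 10 identical bases in a row. Processed pseudogenes are a larger overlap. Of the coding windows of Tarbp2, 76.7% also occur in the pseudogene Gm18584, and of those of Ddx5, 63.3% occur in Gm12183. The corresponding share over all other genes was 1.10% for Drosha and 0% for Dicer1, Xpo5, Prkra and Ddx17. How the authors treated reads with several matches is not given in the sources used here, so the levels of Tarbp2 and Ddx5 may be split with, or lose reads to, these copies.

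Levels of different genes can be compared only per length. In WT, per kb of the longest coding sequence, Ddx5 was at 205 ± 24.2 CPM per kb (SD, n = 2 libraries, as in the rest of this paragraph) and Ddx17 at 196 ± 19.6, which do not differ beyond their spread. Xpo5 followed at 71.3 ± 6.03, Drosha at 43.0 ± 0.0687, Dicer1 at 21.5 ± 0.303, Prkra at 17.5 ± 2.08, Dgcr8 at 14.2 ± 0.102 and Tarbp2 at 7.17 ± 2.00. Dicer1 and Prkra lay within 2 SD of each other, as did Prkra and Dgcr8. In the Dgcr8 libraries and the Drosha knockout Dgcr8 was at 62.6 ± 0.245 and 79.1 ± 8.57 CPM per kb, against 52.8 ± 18 and 7.14 ± 1.76 for Drosha. In the Dgcr8 libraries these levels did not differ beyond their spread, with a ratio of 0.958 in the second library, while in the Drosha knockout Dgcr8 was the higher, and in the Dicer knockout it was at 30.3 ± 3.56, below the 53.8 ± 2.47 of Drosha.

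**Figure D5:**
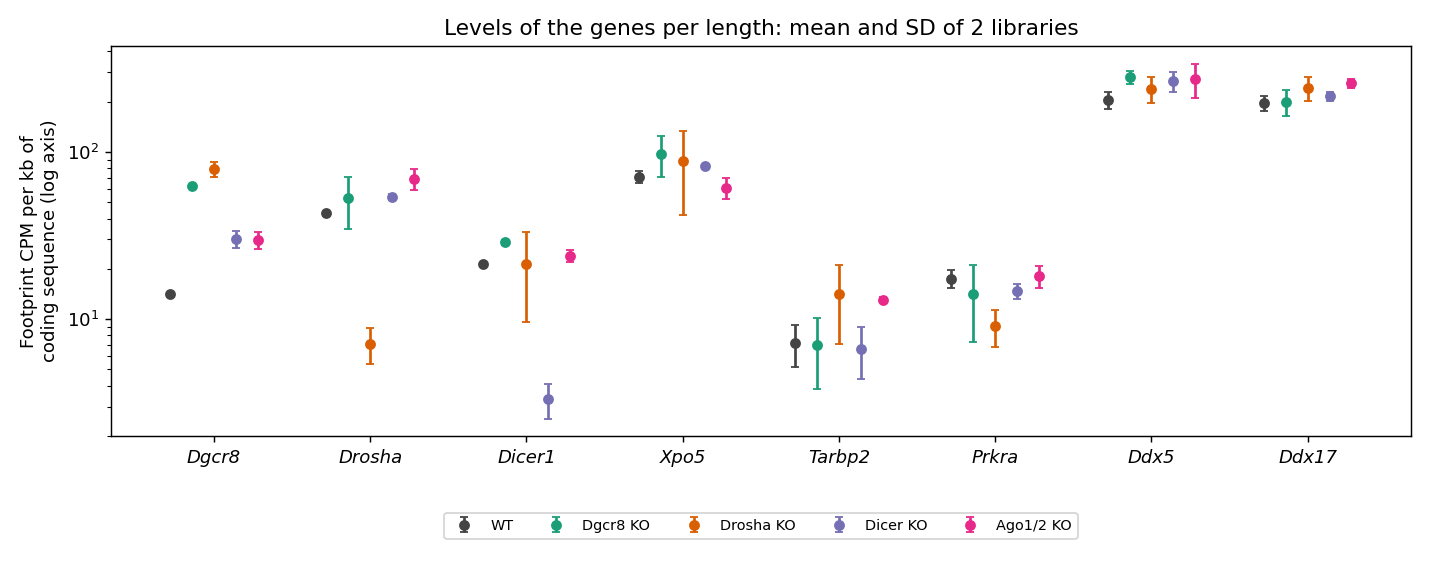
Footprint CPM per kb of coding sequence for each gene and group, mean and SD of 2 libraries on a log axis. Ddx5 and Ddx17 are highest in every group, and Dgcr8 moves from 14.2 in WT to 62.6 in the libraries labelled Dgcr8 knockout and 79.1 in the Drosha knockout.

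Matches to miRNA seeds were looked for in the 3' UTRs of the members, as letters complementary to bases 2 to 8 of 6 miRNAs on the sense strand: AGCACTT (miR-294-3p), GCACTTT (miR-20a-5p), CTACCTC (let-7a-5p), TGCTGCT (miR-16-5p), GTGCAAT (miR-92a-3p) and ATGCTGC (miR-103-3p). They occur in 15.7%, 13.3%, 9.44%, 22.5%, 6.52% and 11.7% of the 10816 table genes with a 3' UTR, whose lengths differ. AGCACTT and GTGCAAT were in 0 of the 8. GCACTTT was in Ddx5 and Ddx17, CTACCTC in Tarbp2, and TGCTGCT in Xpo5 and Tarbp2. The match to miR-103-3p was the most frequent, in Dgcr8, Dicer1 and Tarbp2, and is shown with its miRNA, seed or match in capitals:
mmu-miR-103-3p: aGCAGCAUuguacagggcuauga
Dgcr8: tatgtacagtcATGCTGCaagggtgggga
Dicer1: tgcttcatgtaATGCTGCacttaggttca
Tarbp2: gtcctgaataaATGCTGCtctttggcttc

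The Tarbp2 match overlaps its TGCTGCT match by 6 letters, and the letters of AGCACTT and GCACTTT overlap in the same way. Against WT in the order Dgcr8, Dicer1 and Tarbp2, the log2 fold changes of these 3 genes were 2.14, 0.42 and -0.06 for the Dgcr8 libraries, 2.48, -0.01 and 1.00 for the Drosha knockout, and 1.07, 0.15 and 0.87 for the Ago knockout. For the Dicer knockout, where Dicer1 is the targeted gene, Dgcr8 and Tarbp2 were at 1.09 and -0.05. A match is a description of letters and not a site that was shown to act.

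Other genes of the pathway were taken from 6 lists: Microprocessor partners, nuclear export partners, precursor tailing and turnover, double-stranded RNA-binding proteins, Argonautes with their partners, and other DEAD-box helicases. Of 78 listed genes 74 were tested. In the Dgcr8 libraries 0 of 74 passed in edgeR (4 with an unadjusted p under 0.05, 0 with DESeq2 and 0 with limma-voom), with a median log2 fold change of 0.09. In edgeR, for the Drosha knockout 3 rose and 0 fell, for the Dicer knockout 4 rose and 2 fell, and for the Ago knockout 2 rose and 1 fell, with medians of 0.00, -0.10 and 0.03. DESeq2 called 8, 6 and 5 of the 74 in these comparisons and limma-voom 2, 6 and 4. Of all 10978 genes DESeq2 called 972, 1874 and 932 there, and limma-voom 111, 1045 and 942. With edgeR, 0.0547%, 2.48%, 7.35% and 1.98% of all genes were called higher in the 4 comparisons, Dgcr8 first. In the same order 0.0182%, 0.966%, 3.76% and 0.902% were called lower.

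All of the rises were in the list of Argonautes and their partners, of which 13 were tested. Tnrc6b, a scaffold that links Argonaute to deadenylases, was at 44.4 ± 3.74 CPM in WT and at 135 ± 17.9, 153 ± 7.47 and 151 ± 2.99 CPM in the Drosha, Dicer and Ago knockouts (SD, n = 2). Its relative Tnrc6a was at 24.6 ± 5.20 CPM in WT and 75.9 ± 13.5, 95.5 ± 10.9 and 84.7 ± 24.1 CPM in the same knockouts. Ago1, an Argonaute, rose in the Drosha (log2 2.20) and Dicer (log2 2.33) knockouts. The helicase Mov10, the fourth in order of adjusted p, rose in the Dicer knockout (log2 1.76). In the Dgcr8 libraries Tnrc6b, Tnrc6a and Ago1 were at 63.2 ± 3.09, 45.6 ± 15.3 and 31.6 ± 9.43 CPM, above WT without passing. Mov10 had log2 fold changes of 0.49, 0.95 and 0.75 in the Dgcr8, Drosha and Ago libraries, which did not pass either. In the Ago knockout, labelled as lacking Ago1 and Ago2, Ago2 fell from 81.9 to 10.8 ± 5.88 CPM (log2 -2.94, adjusted p = 0.0059 in edgeR). Ago1 did not pass there, at 14.5 ± 0.246 CPM in WT and 18.9 ± 11.5 CPM in the knockout (log2 0.37, adjusted p = 0.67), so its counts do not show the labelled loss. Lin28a, which blocks let-7 processing, was at 84.9 ± 18.7 CPM in WT and fell to 9.66 ± 9.74 CPM in the Dicer knockout (log2 -3.33, adjusted p = 0.0099 in edgeR). Lin28a was also lower in the Drosha (log2 -2.21, adjusted p = 0.075) and Ago knockouts (log2 -1.06, adjusted p = 0.33), without passing. The Dgcr8 libraries had 94.2 ± 46.0 CPM of it. The helicase Ddx18 also fell in the Dicer knockout (log2 -1.13, adjusted p = 0.026 in edgeR). Its log2 fold changes in the Dgcr8, Drosha and Ago libraries were -0.58, -1.01 and -0.96. These did not pass (adjusted p = 0.51, 0.075 and 0.084 in edgeR). The 22 Microprocessor partners and the 7 export partners had 0 calls in any knockout in edgeR (1 to 3 and 0 to 1 with an unadjusted p under 0.05 per knockout) and with limma-voom, and DESeq2 called 0 partners and 1 export gene, in the Drosha knockout, with median log2 fold changes of -0.26 to 0.08 and -0.24 to 0.06.

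The genes whose log2 CPM followed a member most closely over the 10 libraries were ranked by Pearson correlation among 6791 genes with at least 20 CPM on average. They describe these libraries, which share depth and cell state, and carry no test. For Dgcr8 they were Ubr3 (r = 0.92), Fgd1 (0.89) and Herc1 (0.88). For Drosha they were Exoc1 (0.91), Zfp512 (0.90) and Cenpc1 (0.90), and for Dicer1 Khdc3 (0.96), Fblim1 (0.94) and Renbp (0.93). Xpo5 was followed by Ptbp1 (0.96), Polr1a (0.96) and Ears2 (0.94), Tarbp2 by Stoml1 (0.91), Recql4 (0.90) and Calcoco1 (0.89), and Prkra by Sat1 (0.91), Ncbp3 (0.90) and Wbp4 (0.90). For Ddx5 they were Sf3b3 (0.92), Rpp38 (0.92) and Kbtbd8 (0.90), and for Ddx17 Kank2 (0.96), Blvrb (0.95) and Sbno2 (0.94). Ubr3, the nearest to Dgcr8, spanned a smaller range, from a mean of 143 CPM in WT to 218, 259, 202 and 200 CPM (200.5) in the Dgcr8, Drosha, Dicer and Ago knockouts.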

How the data were processed

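Ribosome footprints were measured in 10 libraries, 2 per group. The authors deposited 1 table of whole-number read counts per gene, with no normalization. Trimmomatic and Bowtie2 with mm10 (GRCm38) and dm6 (BDGP6) are named per the submitters' processing notes, and the counting tool, annotation and strand setting are not given in the sources used here. Drosophila spike-ins named in the labels were not used. Columns were matched to samples by the library number in the labels, and replicate numbers are those of the titles. All 11011 gene identifiers matched the reference.

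The count table was fitted with edgeR 4.0.16 under R 4.3.3: TMM scaling, filterByExpr (33 genes removed), 1 mean per group over all 10 libraries (5 residual degrees of freedom, median prior 6.69), quasi-likelihood tests, 2-sided, and Benjamini-Hochberg adjustment over all 10978 genes at 0.05. SE was derived from the fold change and its F statistic, and intervals are 95%. The script was tested on simulated counts. Alternatives used DESeq2 1.42.0, limma 3.58.1 (voom), other scalings, no filter, a replicate block, 2 groups alone, and each library left out. Hairpins were folded with RNAfold 2.7.2. Lengths and transcripts came from GENCODE M21 (GRCm38), coding lengths without the stop codon, and miRNAs from RefSeq.

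All 8 members are named. Of the pathway lists up to 3 genes per direction and comparison with the smallest adjusted p were named, and the 3 most alike genes per member. The members and lists were chosen with earlier results of these data known, and the hairpin, seed and overlap descriptions were added after the values were seen. Floors and intervals cover counting error only, since PCR copies are not independent molecules.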

Additional observations from a re-analysis of the deposited data

Results flagged for a closer look

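In 6 tests a member differed between knockouts (edgeR, adjusted p under 0.05). Drosha was lower in the Drosha knockout than in the Dgcr8 libraries (log2 difference -2.88), and it was higher in the Dicer (2.91) and Ago (3.27) knockouts than in the Drosha knockout. Dicer1 was lower in the Dicer knockout than in the Dgcr8 libraries (-3.14) and higher in the Ago than in the Dicer knockout (2.87). These 5 involve the gene that the line was labelled for. The remaining one is Dgcr8, which was lower in the Dicer knockout than in the Dgcr8 libraries (-1.05).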

How the results depend on the processing

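The members called against WT were 1 in the Dgcr8 libraries, 2 in the Drosha, 2 in the Dicer and 1 in the Ago knockout. With 1 library left out at a time these counts ranged from 0 to 1, 0 to 2, 1 to 2 and 0 to 1. With only the 2 groups compared in the fit 0 were called in the Dgcr8 libraries and 0 in the Ago knockout, and with total-count scaling 0 in the Ago knockout. The 3 members that differed among the 5 groups stayed 3 under every alternative run except without the first Dicer library, where 2 passed. The 6 called differences between knockouts became 10 with DESeq2. Over all 10978 genes DESeq2 also called more: 310, 893, 359, 67, 142 and 377, against 55, 447, 53, 1, 5 and 60 in edgeR. These are for Drosha, Dicer and Ago against Dgcr8, Dicer and Ago against Drosha, and Ago against Dicer, in that order.

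Over 32 member values and 1 added contrast, 550 of the alternative values kept their direction and side of the threshold, 24 lost a call and 19 changed sign, all 19 among values that did not pass. The added contrast sets Dgcr8 in the Dgcr8 and Drosha libraries against the Dicer and Ago libraries. It makes up 12 of the 550 and 5 of the 24, and since it restates the pattern it was built on, those are no support. In the Dgcr8 libraries, leaving out 1 library at a time gave ranges of -0.10 to 0.61 for Drosha, -0.58 to 0.38 for Tarbp2 (0.26 without WT 1), -0.91 to 0.12 for Prkra and -0.17 to 0.19 for Ddx17 (-0.06 without WT 1). In the Drosha knockout they were -0.72 to 0.46 for Dicer1 (0.0043 without WT 2) and -0.35 to 0.75 for Xpo5, and Dicer1 was at 0.0013 with RLE scaling, 0.029 with total-count scaling and 0.0013 with DESeq2. In the Dicer knockout Tarbp2 ranged from -0.50 to 0.23 and was at 0.12 with limma-voom. In the Ago knockout Prkra ranged from -0.12 to 0.19 (-0.05 without WT 1). The cause was not tested. Per kb of all exons, WT levels ran from 1.73 to 65.5 CPM, and only Dicer1 and Prkra swapped ranks.

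With the replicate number as a block, the counts were 1, 2, 2 and 1 against WT, and 9 differences between knockouts were called. Same-numbered libraries had deviations correlated at 0.061 to 0.29 over 10 pairs of groups, and 9 pairs were over 0.1. The labels state no pairing, and the main fit has no block, so any effect shared by number stays in its spread. What the same-numbered libraries share was not tested. The Ago numbers are those of the titles, while the names of their columns give 2 and 3 in place of 1 and 2. Without the Ago libraries 5 of 6 pairs were over 0.1. A block with the Ago numbers of the column names, added after seeing the data, gave 1, 2, 2 and 1 calls against WT and 7 differences between knockouts, and in the Ago knockout Dicer1 was then at -0.15 and Prkra at -0.0087. With the block of the title numbers, Dgcr8 passed for Ago against Dgcr8 (adjusted p = 0.044) and Ago against Drosha (0.036), and Dicer1 for Dicer against Drosha (0.014). Over all genes the block raised the calls in the Drosha knockout from 378 to 770, in the Dicer knockout from 1220 to 1877 and in the Ago knockout from 316 to 738. In the 6 knockout pairs, in the order given above, it called 175, 779, 200, 6, 45 and 212 genes. The block with the column numbers called 207, 919, 387, 4, 16 and 37. DESeq2 called 160, 972, 1874 and 932 genes in the Dgcr8, Drosha, Dicer and Ago comparisons, against 8, 378, 1220 and 316 in edgeR, and limma-voom called 15, 111, 1045 and 942. Depth limits Tarbp2 and Prkra most, with as few as 10 and 16 counts in a library.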
